A study of Homo sapiens with 6 samples.

Results

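The genes described here are CBLL1 and 9 other genes of the m6A machinery, 10 of the 58288 genes in a table of read counts from T24 cells. CBLL1 was selected on its lower measured counts under siRNA1, so its values are given as a description and without a test in every comparison. The other 9 were listed by function, with earlier results of these data known. They are METTL3, METTL14, WTAP, VIRMA, ZC3H13, RBM15 and RBM15B of the writer complex, and the erasers FTO and ALKBH5. T24 is an established bladder cancer cell line. All cells were transfected with a small interfering RNA: a negative control in siControl, or siRNA1 or siRNA2, each directed at the back-splice junction of the circular RNA circ_0000235 (the study's NC, si-circ235-1 and si-circ235-2). Each group held 2 libraries labelled as biological replicates, and nothing states whether they came from separate cultures, so the p-values measure the spread between these libraries. Polyadenylated RNA was sequenced, which does not capture a circular RNA, so the knock-down itself was not measured in these libraries.

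The totals were 17152017 and 15855386 counts in siControl, 15588108 and 19912893 in siRNA1, and 15373992 and 17562690 in siRNA2. The siRNA2 libraries stood apart in composition. Their 100 most abundant genes took 24.3% and 22.4% of the counts, against 27.9% to 31.5% in the other 4 libraries. Without TMM scaling factors, which correct for such differences, the median log2 fold change over all genes was -0.11 for siRNA1 and 0.25 for siRNA2 against siControl, and 0.37 for siRNA2 against siRNA1. With them the medians were -0.03, 0.00 and 0.04, and all fold changes below are relative to these. In 1 of the 12 alternative settings each library was corrected for how its counts vary with gene length and GC share, written below as the length and GC trend removed. Markers listed for urothelial cells, normal or dedifferentiated, were present in part. KRT7, KRT8, KRT18, CD44 and VIM each stood at 498 CPM (counts scaled to the same library total with TMM factors) or above in every library, while the urothelial genes UPK3A, KRT5, KRT19 and TP63 held 0 to 4 counts. The list held 16 genes, with VIM and CD44 as markers of dedifferentiated cells, and 9 were tested; PPARG, a urothelial transcription factor, rose under siRNA1 (log2 fold change 0.90, SE 0.19, adjusted p = 0.0264) and siRNA2 (1.13, SE 0.19, adjusted p = 0.00310), and KRT7 fell under siRNA2 (-0.76, SE 0.22, adjusted p = 0.0260). Between the siRNAs, VIM (-1.21, SE 0.24, adjusted p = 0.00328) and KRT18 (-1.10, SE 0.26, adjusted p = 0.00799) were lower and CD44 (0.80, SE 0.21, adjusted p = 0.0111) was higher under siRNA2. KRT8, EPCAM, GATA3 and FOXA1 were tested and gave no call in any comparison, and UPK1A, UPK1B and UPK2 held 1 to 15 counts per library. Of the 9 tested, 1 was called under siRNA1, 2 under siRNA2 and 3 between the siRNAs. The shares of all genes called were 5.88%, 31.4% and 39.7%. Of 17 markers of other cell types, 8 had no count in any library, among them PTPRC of blood, HBB of red cells and ALB of liver. The most abundant was CD14, with 43 and 47 counts in siControl, 157 and 178 in siRNA1, and 36 in each siRNA2 library, and it rose under siRNA1 (log2 fold change 1.87, SE 0.29, adjusted p = 0.0104) and was lower under siRNA2 than under siRNA1 (-2.44, SE 0.30, adjusted p = 0.000526). Leaving out siRNA1 replicate 2 ended the siRNA1 calls of PPARG and CD14 and the KRT18 and CD44 calls between the siRNAs. The siRNA1 call of PPARG was lost in 5 of 12 alternatives, the KRT7 call in 5, that of CD44 in 4 and the siRNA1 call of CD14 in 2, the other being without siControl replicate 1; those of VIM and CD14 between the siRNAs were kept in all 12. Of the 17 genes, 4 were tested. Under siRNA1, where 5.88% of all genes were called, 3 of the 4 had no call. These were CDH5 (1.98, SE 0.68, adjusted p = 0.104), COL1A1 (1.30, SE 0.56, adjusted p = 0.178) and ACTA2 (-0.28, SE 0.84, adjusted p = 0.873). The median under siRNA1 was 1.59. Summed over the 17 genes, the level was 4.72 and 4.76 CPM in siControl, 14.6 and 13.7 CPM in siRNA1, and 4.71 and 5.06 CPM in siRNA2. The part of these genes in the results was not tested.

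N6-methyladenosine, or m6A, is the most common internal mark of mRNA. METTL3 transfers the methyl group from S-adenosylmethionine, METTL14 holds the RNA beside it, and an assembly of WTAP, VIRMA, ZC3H13, CBLL1 and either RBM15 or RBM15B anchors the pair in the nucleus and directs it to its sites. CBLL1, also called HAKAI, is a RING-type ubiquitin ligase first known for ubiquitinating E-cadherin at cell junctions. FTO and ALKBH5 remove the mark, and reader proteins bind it and change the splicing, decay or translation of the marked mRNA.

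The 10 genes lie on 10 different chromosomes. The study concerns binding of miR-330-5p by the circular RNA, so the 3′ UTRs were searched for the complement of the miRNA's seed (bases 2 to 8, in capitals). The mature miRNA and the match in CBLL1 are shown because CBLL1 was the only member with a match.
hsa-miR-330-5p: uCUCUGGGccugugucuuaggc
CBLL1 3′ UTR: aattgaCCCAGAGgtgacc
The miRNA is at chr19:45639049-45639070 on the minus strand (RefSeq, GRCh38.p14). The CBLL1 stretch is at chr7:107759429-107759447 on the plus strand (GRCh38), in its longest annotated 3′ UTR (2489 bases). The letters CCCAGAG were in the 3′ UTR of 1 of the 10 members and of 20.5% of the 12145 genes tested that have an annotated 3′ UTR. METTL3 has the shortest of the members' UTRs searched (120 bases) and FTO the longest (10026 bases). A match describes the letters only and is no evidence of binding.

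The promoters of CBLL1, RBM15B and RBM15 are shown because CBLL1 and RBM15B had lower and RBM15 higher counts under siRNA1. Each stretch is the 250 bases before the RefSeq start site (GRCh38.p14, plus strand); for these genes that site lies downstream of the gene start in GENCODE, whose coordinates are given for the genes below. The stretches are printed with matches on either strand in capitals to the GC box GGGCGG, the ETS core CCGGAAG and the E-box CACGTG.
CBLL1: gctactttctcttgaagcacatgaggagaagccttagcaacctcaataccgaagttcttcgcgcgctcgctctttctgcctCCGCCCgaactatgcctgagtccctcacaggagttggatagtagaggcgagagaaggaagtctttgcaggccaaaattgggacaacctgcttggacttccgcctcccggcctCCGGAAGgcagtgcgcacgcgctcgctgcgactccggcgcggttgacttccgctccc
RBM15B: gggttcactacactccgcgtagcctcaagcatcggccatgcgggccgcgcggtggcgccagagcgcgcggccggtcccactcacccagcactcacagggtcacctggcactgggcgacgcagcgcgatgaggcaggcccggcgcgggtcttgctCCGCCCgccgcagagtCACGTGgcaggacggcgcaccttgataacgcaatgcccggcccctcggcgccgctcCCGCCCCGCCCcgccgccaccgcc
RBM15: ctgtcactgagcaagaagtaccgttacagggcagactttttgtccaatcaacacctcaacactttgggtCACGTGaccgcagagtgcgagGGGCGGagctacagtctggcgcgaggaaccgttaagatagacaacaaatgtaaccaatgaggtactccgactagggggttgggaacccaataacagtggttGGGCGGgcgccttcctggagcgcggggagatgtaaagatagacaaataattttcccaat
They lie at chr7:107743892-107744141, chr3:51391035-51391284 and chr1:110339127-110339376. RBM15 and RBM15B, the paralogs that moved in opposite directions under siRNA1, both held 1 E-box, found in 6.34% of the 35116 promoters of this length, and both held GC boxes, found in 42.6%: 2 in RBM15 and 3 in RBM15B, of which 2 overlap each other. CBLL1 held 1 GC box and 1 ETS core, and the ETS core was in 8.52% of all promoters. The paralogs differed in base composition, with 74.8% GC and 35 CpG in RBM15B against 51.6% GC and 13 CpG in RBM15; CBLL1 had 58.8% GC and 20 CpG, and the medians of all promoters were 58% and 11. Promoters of 9 of the 10 members were matched by symbol. These are letters in a window and were not tested as binding sites.

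CBLL1 (chr7:107743697-107761667, plus strand) had 196 and 316 counts in siControl, 70 and 77 in siRNA1, and 423 and 535 in siRNA2. On the CPM scale these were 12.8 and 19.3, then 4.89 and 4.29, then 24.9 and 25.5. The 3 groups did not overlap: both siRNA1 libraries were lowest and both siRNA2 libraries highest. The level under siRNA1 was 0.285 times that of siControl (log2 fold change -1.81, SE 0.27), and the level under siRNA2 was 1.57 times that of siControl (log2 fold change 0.65, SE 0.25). Between the siRNAs the fold was 5.50 (log2 fold change 2.46, SE 0.27). The siRNA comparisons with siControl share the siControl libraries, and the comparison between siRNAs shares libraries with both, so these 3 values are not independent of the choice of CBLL1. In RNA from whole cultures, fewer cells expressing a gene and less of its RNA per cell cannot be told apart. An antisense gene, AC002467.1, overlaps 333 exonic bases of CBLL1 and held 2 to 23 counts per library. The libraries were made without strand information.

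**Figure D1:**
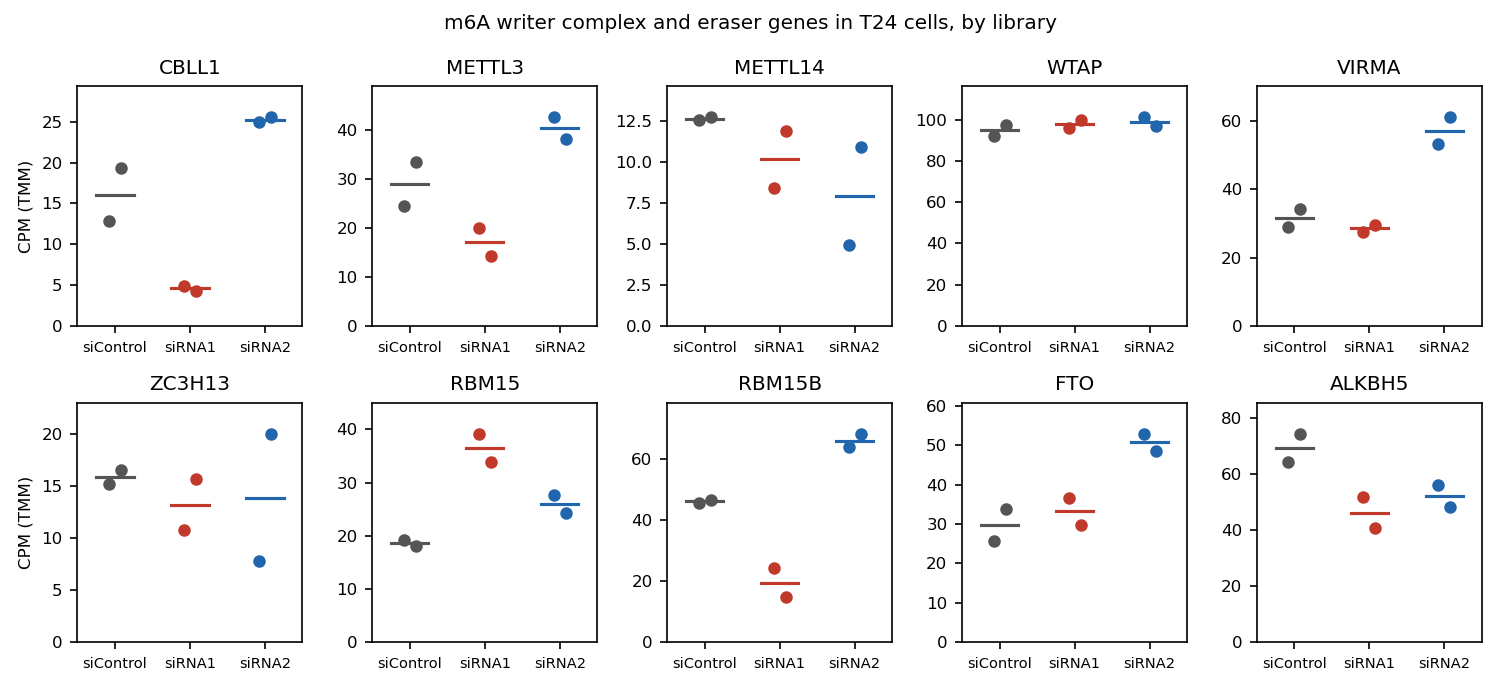
Level of each of the 10 genes in CPM (TMM-scaled, linear axes from 0), with a point per library and a line at each group's mean of 2 libraries. CBLL1, METTL3 and RBM15B were lowest in both siRNA1 libraries and highest in both siRNA2 libraries, while RBM15 was highest under siRNA1 and WTAP was nearly level.

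Among the 9 other genes, 1 rose (RBM15) and 1 fell (RBM15B) under siRNA1, 2 rose under siRNA2 (VIRMA and FTO), and 4 were higher under siRNA2 than under siRNA1 (METTL3, VIRMA, RBM15B and FTO). All 10 genes passed the filter on low counts. Over the 14415 genes tested, siRNA1 against siControl gave 5.88% called (2.24% higher, 3.64% lower), siRNA2 against siControl 31.4% (15.7% higher, 15.7% lower), and siRNA2 against siRNA1 39.7% (21.1% higher, 18.6% lower), by edgeR's quasi-likelihood test at an adjusted p under 0.05. The 9 genes were listed with earlier results of these data known, so their counts are a description and were not tested against these shares. In siRNA1 against siControl 2 of 9 (22.2%) were called, beside 5.88% of all genes. Both calls were lost when some single libraries were left out. In siRNA2 against siControl 2 of 9 were called, both higher, beside 31.4% of all genes called and 15.7% called higher. Between the siRNAs 4 of 9 (44.4%) were called, all higher, beside 39.7% called and 21.1% called higher. The median log2 fold changes of the 9 genes were -0.26, 0.48 and 0.17 in the same order. Without TMM factors, 179 genes were higher and 529 lower under siRNA1, 3173 higher and 1294 lower under siRNA2, and 4534 higher and 1496 lower between the siRNAs.

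**Figure D2:**
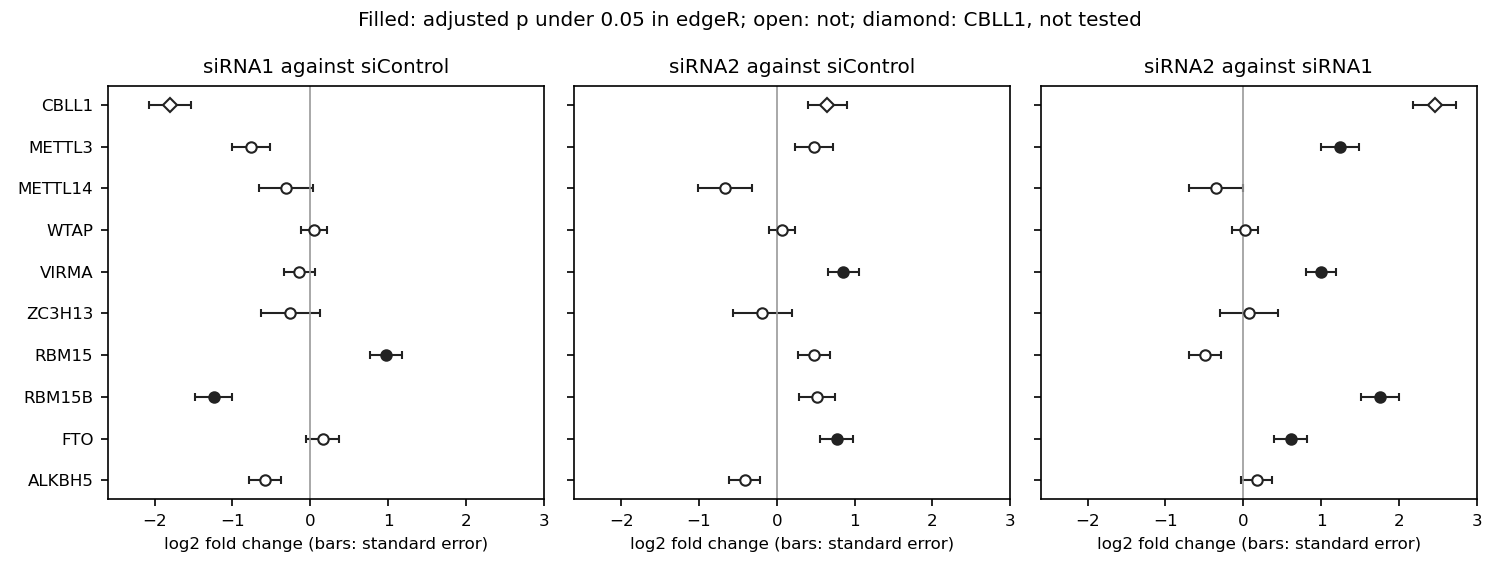
Log2 fold change of each gene in the 3 comparisons, with bars of 1 standard error; filled points passed edgeR's test and the CBLL1 diamond was not tested. RBM15 and RBM15B stand on opposite sides of 0 under siRNA1, and METTL3, VIRMA, RBM15B and FTO stand above 0 between the siRNAs.

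Of the catalytic pair, METTL3 was called between the siRNAs and METTL14 had no call; the difference between the genes was not tested. METTL3, the methyltransferase itself (chr14:21498133-21511375, minus strand), had 24.5 and 33.3 CPM in siControl, 19.9 and 14.3 CPM in siRNA1, and 42.5 and 38.1 CPM in siRNA2. The groups did not overlap, and the order was that of CBLL1. METTL3 was 2.36 times as high under siRNA2 as under siRNA1 (log2 fold change 1.24, SE 0.24, adjusted p = 0.00299), a call kept in all 12 alternative settings. Neither difference from siControl passed: the log2 fold changes were -0.76 for siRNA1 (SE 0.24, adjusted p = 0.0860) and 0.48 for siRNA2 (SE 0.24, adjusted p = 0.149). METTL3 was called lower under siRNA1 in 5 of the 12 alternatives, among them no filter on low counts and either siRNA2 library left out. It shares 388 exonic bases with TOX4 on the other strand, a nuclear protein gene, which was also higher under siRNA2 than siRNA1 (log2 fold change 0.73, SE 0.18, adjusted p = 0.0105), a call lost with the length and GC trend removed and without siRNA1 replicate 2; its part in the METTL3 values was not tested.

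METTL14, the RNA-binding partner, had 12.5 and 12.7 CPM in siControl, 8.39 and 11.9 CPM in siRNA1, and 4.95 and 10.9 CPM in siRNA2. Both siControl libraries were above the other 4, but the siRNA2 libraries lay far apart. None of its differences passed the test: the log2 fold change was -0.31 (SE 0.35, adjusted p = 0.623) under siRNA1 and -0.66 (SE 0.35, adjusted p = 0.169) under siRNA2. With the length and GC trend removed, or without siRNA2 replicate 2, METTL14 was called lower under siRNA2. Between the siRNAs its log2 fold change was -0.35 (SE 0.35, adjusted p = 0.449), and it was called lower there without siRNA2 replicate 2 (-1.03).

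Of the scaffold genes, VIRMA rose under siRNA2 and WTAP and ZC3H13 gave no call. WTAP, which recruits the catalytic pair to nuclear speckles, had 92.2 and 97.6 CPM in siControl, 95.8 and 99.9 CPM in siRNA1, and 101 and 97.1 CPM in siRNA2. The groups overlapped throughout, with log2 fold changes of 0.04 and 0.06 against siControl (SE 0.17 for each, adjusted p = 0.903 and 0.805). Once the length and GC trend was taken out, the siRNA2 value turned to -0.31 (adjusted p = 0.0906), and WTAP was called lower under siRNA2 than under siRNA1 (-0.35, adjusted p = 0.0455). The superoxide dismutase gene SOD2 is annotated under 2 gene identifiers that overlap 298 and 139 exonic bases of WTAP on the other strand. Counts are given for 1 of them: 14648 and 15969 in siControl, 30636 and 42842 in siRNA1, and 34154 and 37023 in siRNA2. SOD2 rose under siRNA1 (log2 fold change 1.23, SE 0.22, adjusted p = 0.0156) and under siRNA2 (0.97, SE 0.22, adjusted p = 0.00920). The first call was lost without any of the 4 siControl and siRNA1 libraries, the second with the length and GC trend removed and without siControl replicate 1. The part of SOD2 in the WTAP values was not tested.

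VIRMA, the large scaffold that steers methylation towards 3′ UTRs, had 28.97 and 34.2 CPM in siControl, 27.6 and 29.6 CPM in siRNA1, and 53.2 and 61.1 CPM in siRNA2. Both siRNA2 libraries were above the other 4, and siControl and siRNA1 overlapped. VIRMA was 1.81 times as high under siRNA2 as in siControl (log2 fold change 0.86, SE 0.20, adjusted p = 0.00897) and 2.00 times as high as under siRNA1 (1.00, SE 0.20, adjusted p = 0.00298). The first call was lost without siControl replicate 1 (adjusted p = 0.0985); the second was kept in all 12 alternatives, with a log2 fold change of 0.68 at the lowest.

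ZC3H13, a zinc finger protein that keeps the complex in the nucleus, had 15.2 and 16.5 CPM in siControl, 10.8 and 15.7 CPM in siRNA1, and 7.78 and 20 CPM in siRNA2. The siRNA2 libraries enclosed all 4 others. Its log2 fold change was -0.26 under siRNA1 (SE 0.38, adjusted p = 0.721) and -0.18 under siRNA2 (SE 0.38, adjusted p = 0.745), and the second ran from -1.03 to 0.33 depending on which library was left out, and was called lower without siRNA2 replicate 2. In METTL14 and ZC3H13 alike, siRNA2 replicate 1 was the lowest of the 6 libraries.

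The paralogs RBM15 and RBM15B, which bind RNA and bring the complex to its targets, went in opposite directions under siRNA1. RBM15 (chr1:110338506-110346681, plus strand) had 19.2 and 18.0 CPM in siControl, 39.1 and 33.9 CPM in siRNA1, and 27.6 and 24.3 CPM in siRNA2. The groups did not overlap. RBM15 rose 1.96-fold under siRNA1 (log2 fold change 0.97, SE 0.21, adjusted p = 0.0268). Under siRNA2 the log2 fold change was 0.48 (SE 0.21, adjusted p = 0.101), and between the siRNAs it was -0.49 (SE 0.21, adjusted p = 0.0798), a fall that passed once the length and GC trend was taken out.

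RBM15B (chr3:51391268-51397908, plus strand) had 45.7 and 46.6 CPM in siControl, 24.2 and 14.9 CPM in siRNA1, and 63.6 and 68.1 CPM in siRNA2. Again the 3 groups did not overlap, with siRNA1 lowest and siRNA2 highest. RBM15B fell to 0.422 times its siControl level under siRNA1 (log2 fold change -1.24, SE 0.24, adjusted p = 0.0175). It was 3.38 times as high under siRNA2 as under siRNA1 (1.76, SE 0.24, adjusted p = 0.000722), a call kept in all 12 alternatives. Against siControl, the siRNA2 value was 0.51 (SE 0.23, adjusted p = 0.112). Without TMM factors both RBM15 and RBM15B were called higher under siRNA2 than in siControl.

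Both calls under siRNA1 rested on few libraries. RBM15 was not called without either siControl library or either siRNA1 library, with adjusted p up to 0.166, and RBM15B was not called without either siControl library or siRNA1 replicate 2, with adjusted p up to 0.178; the log2 fold changes kept their signs, between 0.86 and 1.18 for RBM15 and between -1.64 and -0.93 for RBM15B over all 12 alternatives. RBM15B shares 1325 exonic bases, 19.95% of its exonic length, with the ubiquitin ligase subunit gene DCAF1 on the other strand. DCAF1 had 270 and 398 counts in siControl, 307 and 211 in siRNA1, and 784 and 1081 in siRNA2. It rose under siRNA2 (log2 fold change 1.22, SE 0.29, adjusted p = 0.00992; lost with the length and GC trend removed and without siControl replicate 1) and was not called under siRNA1 (-0.34, SE 0.29, adjusted p = 0.500). Between the siRNAs DCAF1 was higher under siRNA2 in all 12 alternatives (1.56, SE 0.29, adjusted p = 0.00228), in the same comparison and direction as RBM15B. Its part in the RBM15B values was not tested; reads from the shared bases cannot be told apart without strand.

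Of the erasers, FTO was called higher under siRNA2 and ALKBH5 had no call; the difference between the genes was not tested. FTO had 25.8 and 33.7 CPM in siControl, 36.7 and 29.7 CPM in siRNA1, and 52.9 and 48.5 CPM in siRNA2. Both siRNA2 libraries were above the other 4, which overlapped. FTO was called higher under siRNA2 than in siControl (1.71-fold, log2 fold change 0.77, SE 0.21, adjusted p = 0.0205) and than under siRNA1 (1.53-fold, 0.61, SE 0.21, adjusted p = 0.0406). Both calls ended with the length and GC trend removed: the log2 fold changes were then -0.06 (adjusted p = 0.826) and -0.16 (adjusted p = 0.472). The first was also lost without siControl replicate 1 or siRNA2 replicate 1, and the second without any of the 4 siRNA1 and siRNA2 libraries. The longest FTO transcript has 11766 bases, the longest among the 10 genes.

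ALKBH5 had 64.1 and 74.3 CPM in siControl, 51.9 and 40.6 CPM in siRNA1, and 55.9 and 48.3 CPM in siRNA2. Both siControl libraries were above the other 4. The differences from siControl did not pass the test, with log2 fold changes of -0.58 (SE 0.20, adjusted p = 0.103) for siRNA1 and -0.41 (SE 0.20, adjusted p = 0.140) for siRNA2.

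**Figure D3:**
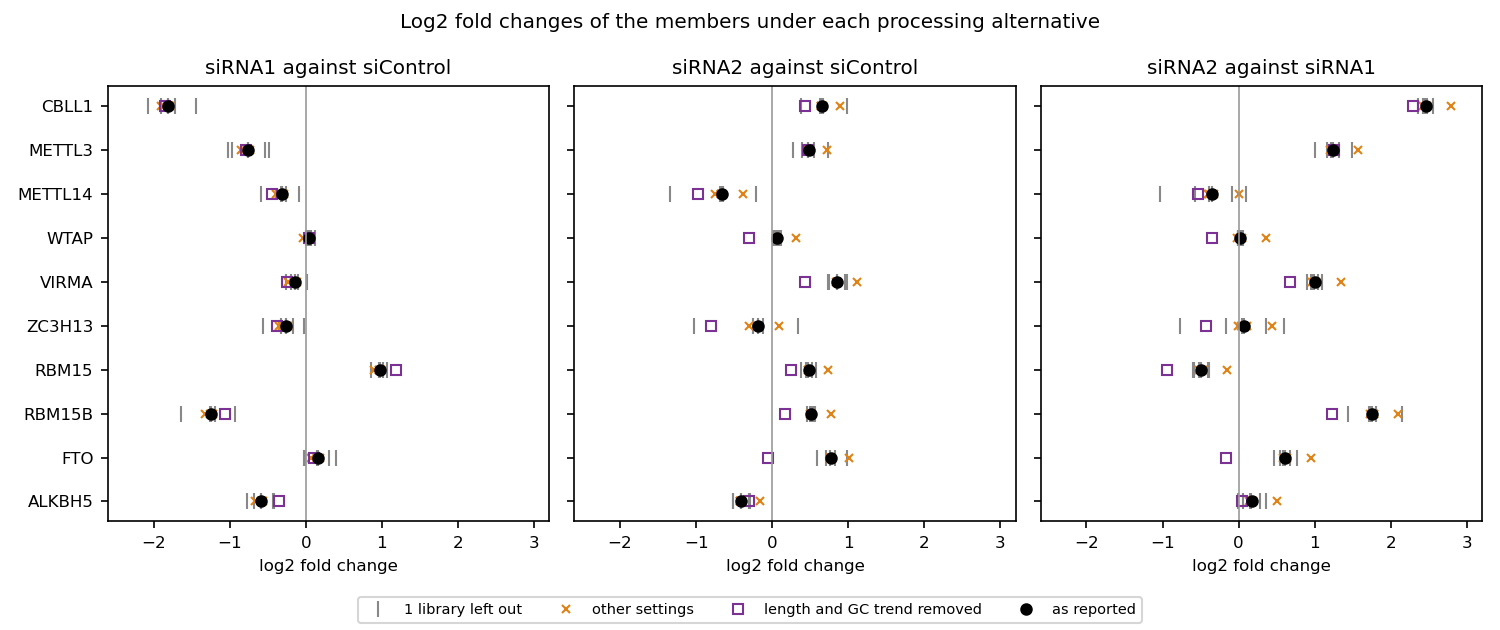
Log2 fold change of each gene as reported (black) and under the alternatives: leaving out 1 library (grey ticks), removing the length and GC trend (purple squares) and the other settings (orange crosses). FTO falls to -0.06 and -0.16 in the siRNA2 comparisons with the trend removed, while METTL3, VIRMA and RBM15B stay above 0 between the siRNAs.

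Levels of different genes were compared as CPM per kilobase of the longest transcript. In siControl the order of mean levels was WTAP (26.0), ALKBH5 (25.2), METTL3 (11.5), RBM15B (6.95), VIRMA (4.84), RBM15 (4.38), CBLL1 (3.63), FTO (2.53), ZC3H13 (1.98) and METTL14 (1.89). The 2 libraries of neighbours overlapped for WTAP and ALKBH5, for VIRMA and RBM15, for RBM15 and CBLL1, and for ZC3H13 and METTL14, so those orders did not differ beyond their spread. CBLL1 ranged from 2.90 to 4.35 between the siControl libraries. With the coding length in place of the transcript, WTAP and ALKBH5 remained first (79.9 and 58.5), and FTO moved to the third place (17.7).

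**Figure D4:**
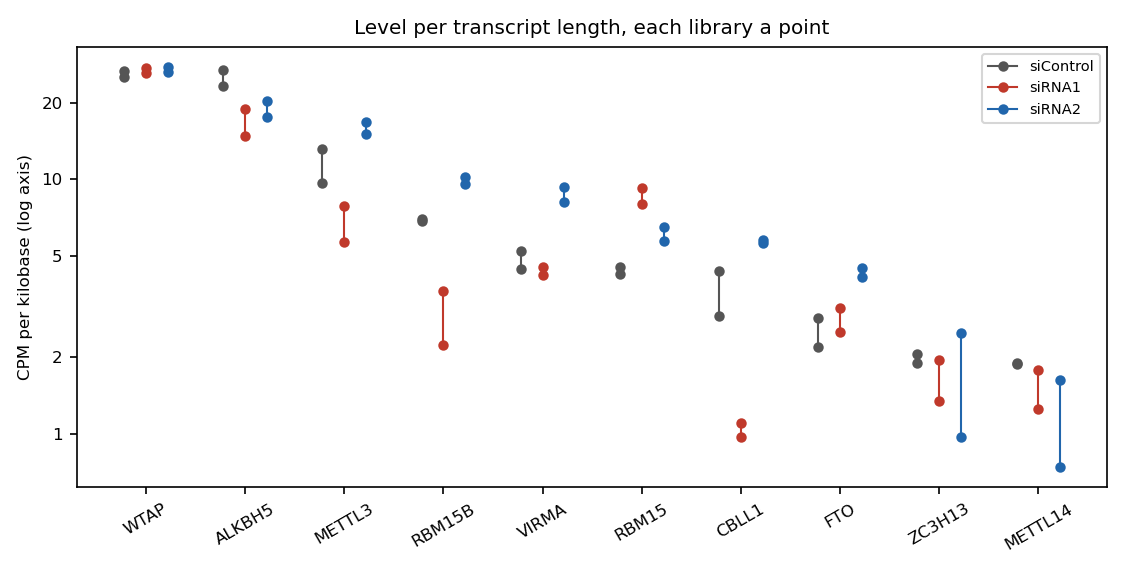
Level of the 10 genes in CPM per kilobase of the longest transcript, on a log axis, with the 2 libraries of each group joined by a line. WTAP and ALKBH5 (26.0 and 25.2 in siControl) stand above the others, and the siRNA2 libraries of ZC3H13 and METTL14 lie farthest apart.

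Of the 13 readers, all tested, 1 fell under siRNA1, 4 rose and 1 fell under siRNA2, and 4 were higher and 2 lower under siRNA2 than under siRNA1. The shares of all genes called in these comparisons were 5.88%, 31.4% and 39.7%, so the counts of readers were near the background. Their median log2 fold changes were 0.11, 0.12 and 0.04, beside -0.03, 0.00 and 0.04 over all genes. PRRC2A, a coiled-coil reader, had 226 and 194 CPM in siControl, 88.8 and 70.2 CPM in siRNA1, and 178 and 167 CPM in siRNA2. It fell under siRNA1 (log2 fold change -1.40, SE 0.19, adjusted p = 0.00747), a call lost without siRNA1 replicate 2 (adjusted p = 0.145), and was higher under siRNA2 than siRNA1 (1.12, SE 0.19, adjusted p = 0.00164). The group order of PRRC2A thus had siRNA1 lowest, as for CBLL1, but siControl highest.

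The IGF2BP proteins bind marked mRNA and protect it from decay, and their genes rose under siRNA2. IGF2BP3 had 3.15 and 6.41 CPM in siControl, 3.84 and 2.62 CPM in siRNA1, and 27.3 and 36.5 CPM in siRNA2. Its log2 fold change of 2.74 (SE 0.35, adjusted p = 0.00179) was called in all 12 alternatives, as was that between the siRNAs (3.31, SE 0.37, adjusted p = 0.000425). IGF2BP1 (1.06, SE 0.19, adjusted p = 0.00382) and IGF2BP2 (0.74, SE 0.17, adjusted p = 0.00953) also rose under siRNA2. With the length and GC trend removed neither was called, with IGF2BP1 at 0.35 (adjusted p = 0.0956) and IGF2BP2 at 0.34; the IGF2BP2 call was also lost without siControl replicate 1. Between the siRNAs IGF2BP1 was called higher (0.65, SE 0.19, adjusted p = 0.0206), and this turned to -0.08 with the trend removed and was lost without siRNA1 replicate 2 or either siRNA2 library.

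Among the YTH-domain readers, which hold the methylated base in a pocket, the nuclear YTHDC1 had 10.03 and 16.6 CPM in siControl, 8.81 and 8.09 CPM in siRNA1, and 21.2 and 24.7 CPM in siRNA2, the group order of CBLL1. It was higher under siRNA2 than under siRNA1 in all 12 alternatives (log2 fold change 1.44, SE 0.28, adjusted p = 0.00270). Its rise over siControl (0.78, SE 0.27, adjusted p = 0.0481) was lost in 6 of 12. YTHDF3, a cytoplasmic reader, fell under siRNA2 (-0.61, SE 0.20, adjusted p = 0.0402), a call lost in 9 of 12 alternatives, and was lower than under siRNA1 (-0.85, SE 0.20, adjusted p = 0.00779), lost in 2 of 12 (no TMM factors, and without siRNA1 replicate 2). HNRNPC, HNRNPA2B1 and RBMX, abundant nuclear RNA-binding proteins, had the highest levels per length of the readers (141, 80.5 and 46.8 over the 6 libraries). HNRNPC was lower under siRNA2 than siRNA1 (-0.76, SE 0.20, adjusted p = 0.0121), a call lost in 4 of 12 alternatives, and HNRNPA2B1 and RBMX had no call.

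S-adenosylmethionine is the methyl donor of METTL3, and 4 of 8 genes listed for its supply and turnover rose under siRNA2, where 15.7% of all genes did. Among the 4 were AHCYL1 and AHCYL2, relatives of the turnover enzyme AHCY, and AHCY itself had no call. Under siRNA1, where 5.88% of all genes were called, edgeR called none of the 8, and the difference between these counts was not tested. There the unadjusted p was under 0.05 for AHCY and ADK; by DESeq2 1 gene was called, ADK, whose log2 fold change was 0.62 (SE 0.17, adjusted p = 0.0566 in edgeR). The medians were 0.51 for siRNA2 and -0.14 for siRNA1. MAT2A, the enzyme that makes S-adenosylmethionine in most cells, had 128 and 192 CPM in siControl, 133 and 114 CPM in siRNA1, and 359 and 340 CPM in siRNA2. Its log2 fold change was 1.13 under siRNA2 (SE 0.22, adjusted p = 0.00484), lost without siControl replicate 1 (adjusted p = 0.0570), and 1.51 between the siRNAs (SE 0.22, adjusted p = 0.000970), kept in all 12 alternatives.

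AHCYL2 and AHCYL1, relatives of the enzyme that clears the product S-adenosylhomocysteine, rose by log2 fold changes of 1.45 (SE 0.24, adjusted p = 0.00303) and 0.56 (SE 0.18, adjusted p = 0.0355) under siRNA2. Methionine synthase MTR rose by 1.16 (SE 0.22, adjusted p = 0.00433). With the length and GC trend removed, AHCYL1 and MTR were not called and AHCYL2 was. Without siControl replicate 1 the calls of AHCYL1 and MTR were also lost, and that of AHCYL1 in 6 of 12 alternatives in all. AHCY itself, the most abundant of the list per length (195), had 511 CPM in both siControl libraries, 410 and 335 CPM in siRNA1, and 544 and 463 CPM in siRNA2, with no call. Between the siRNAs 6 of the 8 were called, beside 39.7% of all genes (21.1% higher, 18.6% lower). MAT2A, AHCYL1, AHCYL2, MTR and MTRR, the reductase that restores MTR, were higher under siRNA2. The adenosine kinase ADK was lower (-0.50, SE 0.17, adjusted p = 0.0380, lost in 7 of 12 alternatives). The list median was 0.67. With the length and GC trend removed AHCYL1 and MTR were not called here either. The AHCYL1 call was also lost without siRNA1 replicate 2 or either siRNA2 library, and the MTRR call without siRNA1 replicate 1 or siRNA2 replicate 2.

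The list of other N6-adenosine methyltransferases and partners held 7 genes, among them METTL16, which methylates U6 RNA. Neither edgeR nor DESeq2 called any under siRNA1 (0 of 7, with 1 gene, PCIF1, at an unadjusted p under 0.05), with a median log2 fold change of 0.02. In each of the other 2 comparisons 1 of the 7 was called, beside 5.88%, 31.4% and 39.7% of all genes in the 3 comparisons. TRMT112, the partner that stabilises METTL5 and the most abundant of the list per length (90.1), had 155 and 102 CPM in siControl, 110 and 103 CPM in siRNA1, and 65.2 and 62.1 CPM in siRNA2. It fell under siRNA2 (-1.01, SE 0.21, adjusted p = 0.00649) and was lower than under siRNA1 (-0.75, SE 0.21, adjusted p = 0.0181). The first call was lost without siControl replicate 1 (adjusted p = 0.0721), and the second without TMM factors and without either siRNA1 library or siRNA2 replicate 2. METTL5, which methylates ribosomal RNA, and PCIF1, which methylates the cap-adjacent adenosine, had the next highest levels (33.8 and 19.3) and no call. The list medians were 0.07 for siRNA2 against siControl and 0.14 between the siRNAs.

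**Figure D5:**
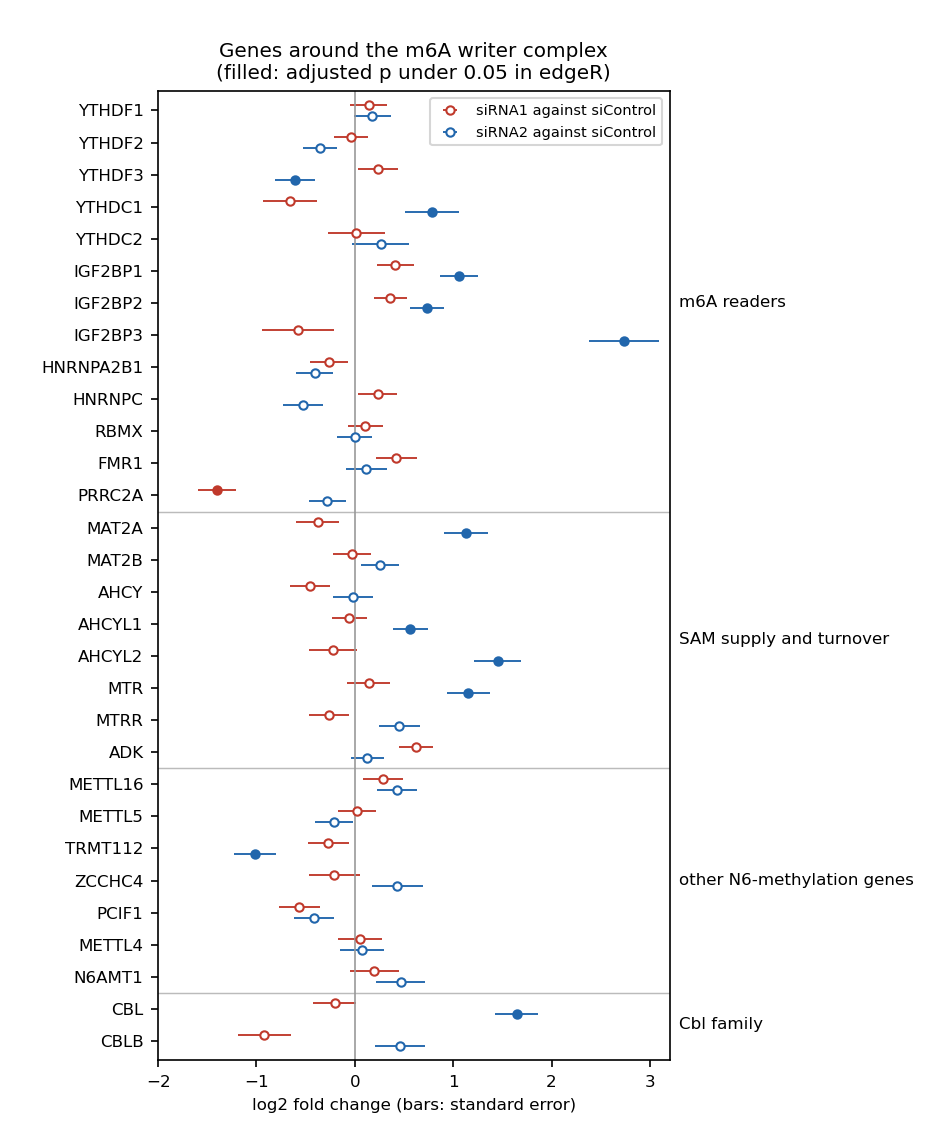
Log2 fold change of the readers, the S-adenosylmethionine genes (SAM), the other N6-methylation genes and the Cbl family for siRNA1 (red) and siRNA2 (blue) against siControl, with bars of 1 standard error and filled points past edgeR's test. Both comparisons share the siControl libraries; PRRC2A is the only filled red point, and IGF2BP3 (2.74) stands farthest from 0.

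CBLL1 takes its name from the Cbl family of RING ubiquitin ligases. CBL, which ubiquitinates activated receptor tyrosine kinases, had 31.1 and 45.1 CPM in siControl, 29.6 and 36.5 CPM in siRNA1, and 115 and 124 CPM in siRNA2. It rose under siRNA2 (log2 fold change 1.65, SE 0.22, adjusted p = 0.00179) and was higher than under siRNA1 (1.85, SE 0.22, adjusted p = 0.000526) in all 12 alternatives. CBLB, its close relative, had 6.82 and 6.84 CPM in siControl, 3.35 and 3.85 CPM in siRNA1, and 9.08 and 9.64 CPM in siRNA2. The 3 groups did not overlap and had the order of CBLL1, and CBLB passed the test between the siRNAs (1.37, SE 0.26, adjusted p = 0.00263) but not under siRNA1 (-0.92, SE 0.27, adjusted p = 0.0657) or siRNA2 (0.46, SE 0.25, adjusted p = 0.194). CBLC held 2 counts in 1 siControl library and none in the others, and CBLL2 held none. Of the 2 genes tested, 0 were called under siRNA1, 1 under siRNA2 and 2 between the siRNAs. The shares of all genes called were 5.88%, 31.4% and 39.7%.

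CDH1, which encodes E-cadherin, the first known substrate of the CBLL1 protein, held 0 to 6 counts per library and was not tested. The other 6 genes of the junction list were tested. Under siRNA1 edgeR called none, with JUP and SRC at an unadjusted p under 0.05, and DESeq2 called 1, JUP. Under siRNA2, 3 rose and 1 fell. Of all genes, 5.88% were called under siRNA1, 31.4% under siRNA2 and 39.7% between the siRNAs. The medians were -0.06 and 0.51. The catenin genes CTNND1 (1.17, SE 0.20, adjusted p = 0.00307), CTNNA1 (0.70, SE 0.21, adjusted p = 0.0270) and CTNNB1 (0.66, SE 0.20, adjusted p = 0.0306), whose proteins bind the cadherin tail, rose. JUP, or plakoglobin, fell (-0.89, SE 0.23, adjusted p = 0.0141), a call lost without siControl replicate 1 or siRNA2 replicate 2. CTNNA1 lost its call in 4 of 12 alternatives and CTNNB1 in 7, both with the length and GC trend removed and without siControl replicate 1 or either siRNA2 library, and CTNNB1 also without either siRNA1 library and with only the groups compared; the CTNND1 call was kept in all 12 alternatives. Between the siRNAs, CTNND1 (1.48, SE 0.20, adjusted p = 0.000686) and the kinase SRC (0.88, SE 0.22, adjusted p = 0.00926) were higher under siRNA2, SRC not without siRNA1 replicate 2, with a list median of 0.38. Cortactin, CTTN, had the highest level per length of the list (90.3) and no call.

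The genes whose pattern was most like that of CBLL1 were PROSER3, BCL9, C16orf58, WASF1 and PRR12. Likeness was the Euclidean distance between centred log2 CPM over the 6 libraries, among the 10378 genes that averaged 5 CPM or more, and the distances were 0.259, 0.260, 0.333, 0.335 and 0.352. PROSER3 had 6.36 and 9.84 CPM in siControl, 2.73 and 1.84 CPM in siRNA1, and 13.0 and 13.3 CPM in siRNA2. BCL9, a co-factor of beta-catenin, had 10.2 and 12.5 CPM in siControl, 3.64 and 3.35 CPM in siRNA1, and 20.2 and 18.7 CPM in siRNA2. In both, as in CBLL1, siRNA1 was lowest and siRNA2 highest, with siControl replicate 2 above replicate 1. Of the other m6A genes, RBM15B came closest (distance 0.856, rank 57), then METTL3 (1.30, rank 346) and VIRMA (1.80, rank 1343), and RBM15 was farthest (3.299, rank 8168). With the Pearson correlation as the measure, 1 of these 5 genes, PROSER3, was again among the 5 most alike.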

How the data were processed

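Whole-number counts of reads per gene, raw and without normalization, were deposited by the authors for 6 T24 libraries (2 per group) made from oligo dT-enriched RNA without strand information. The submitters' processing notes name FastQC, cutadapt, STAR and hg38; for the counting tool, the annotation and all versions, nothing was given in the sources used here. Groups came from the sample titles. The members and gene lists were chosen with earlier results of these data known.

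edgeR 4.0.16, run in R 4.3.3, was the main tool (filterByExpr by group with a minimum count of 10, TMM, quasi-likelihood test, 1 mean per group over all 6 libraries, Benjamini-Hochberg adjustment over the 14415 genes tested, threshold 0.05). SE is the log2 fold change divided by the square root of F. The fit was tested on simulated data of 14068, 14057 and 14065 genes, for siRNA1 and siRNA2 against siControl and siRNA2 against siRNA1. Of 200 genes given a log2 change of 1, 34%, 29.5% and 26.5% were recovered. Of the genes given no change, 5, 15 and 6 were called. In the data far more genes were called (847, 4530 and 5725), so the recovered shares may not hold there. The replicates of a group differed by more than counting noise (chi-square per degree of freedom 24.1 to 36.9).

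GENCODE release 29 supplied names, lengths, GC content and 3′ UTRs (99.5% of identifiers matched) and may differ from the authors' annotation. In each list, genes called in a comparison or among the 3 highest per length were named; the others are counted, apart from 1 gene that is not reported here. Genes sharing sequence were checked by 50-base words: 5.88% of those of WTAP occur in another gene. Alternatives were DESeq2 1.42.0, no TMM, no filter, a replicate block, only the groups compared, a trend over length and GC (splines with 5 degrees of freedom) removed, and each library left out.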

Additional observations from a re-analysis of the deposited data

How the results depend on the processing

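Of 360 values for the 10 genes under the alternatives, 311 kept their direction and side of the threshold, 14 lost a call, 12 gained a call, 21 changed sign and 2 of CBLL1 moved by more than the spread. Of 396 values of other called genes, cell type markers and overlapping genes left out, 325 were kept, 70 lost their call and 1 changed sign. The cause of these changes was not tested.

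Genes called under siRNA1 against siControl numbered 847, against 1519 with DESeq2, 1678 with no filter, 1967 with the length and GC trend removed, 1642 with only the groups compared and 0 to 1482 with 1 library left out. The 0 was by edgeR without siRNA1 replicate 2, when 2110 genes had an unadjusted p under 0.05; without siControl replicate 1 and 2 the counts were 74 and 134, and without siRNA1 replicate 1 it was 423. For siRNA2 the 4530 became 769 without siControl replicate 1 (769 to 4240 over all libraries), and between the siRNAs the 5725 became 2817 without siRNA1 replicate 2 (2817 to 5558). Called members numbered 0 to 3 of 2 under siRNA1, 0 to 4 of 2 under siRNA2 (4 without TMM, all higher, and 4 without siRNA2 replicate 2, METTL14 and ZC3H13 of them lower) and 3 to 5 of 4 between the siRNAs (5 with the length and GC trend removed, 3 to 4 with 1 library left out).

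Apart from FTO and IGF2BP1, sign changes were in values not called as reported. Of these, METTL14 between the siRNAs was farthest from 0 (-0.35, SE 0.35). Between the siRNAs, METTL14 went from -0.35 to 0.0059 without TMM, and ran from -1.03 to 0.10 with 1 library left out (0.10 without siRNA2 replicate 1). WTAP went from 0.02 to -0.016 with DESeq2 and -0.35 with the trend removed (then called), and ran from -0.012 to 0.052 with 1 library left out, below 0 without siControl replicate 2, siRNA1 replicate 1 or siRNA2 replicate 1. ZC3H13 went from 0.07 to -0.43 with the trend removed, and ran from -0.77 to 0.59 with 1 library left out, below 0 without siRNA1 replicate 1 (-0.17) and siRNA2 replicate 2. ALKBH5 went from 0.17 to -0.0018 without siRNA1 replicate 2 (at most 0.36 with another left out), FTO to -0.16 and IGF2BP1 to -0.075 with the trend removed. Under siRNA2, WTAP went to -0.31 and FTO to -0.058 with the trend removed, and ZC3H13 from -0.18 to 0.090 without TMM and -1.03 to 0.33 with 1 library left out (0.33 without siRNA2 replicate 1). Under siRNA1, WTAP went to -0.040 without TMM. VIRMA, at -0.14, ran from -0.26 to 0.020 with 1 library left out, above 0 without siControl replicate 2. FTO, at 0.16, ran from -0.025 to 0.40, below 0 without siControl or siRNA1 replicate 1.

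Same-numbered replicates did not pair: the differences between replicates 1 and 2 correlated at -0.09, 0.15 and 0.14 between groups. With the replicate block the calls were 937, 4750 and 6043, the called members stayed at 2, 2 and 4, and ZC3H13 between the siRNAs became -0.0039. Per coding length the siControl levels were CBLL1 10.9, METTL3 16.6, METTL14 9.22, WTAP 79.9, VIRMA 5.81, ZC3H13 3.17, RBM15 6.35, RBM15B 17.3, FTO 17.7 and ALKBH5 58.5. By Pearson correlation 1 of the 5 genes most like CBLL1 was shared. With 2 libraries per group, leaving 1 out assumes that the lone library varies like the other groups.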
